A study of Mus musculus with 12 samples.

Results

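The comparison described here sets liver RNA of zinc-treated Atp7b-/- mice against liver RNA of untreated Atp7b-/- mice. Its members were chosen by the sample titles alone, and are 8 of the 12 arrays of the study: 4 Atp7b-/- arrays with zinc and 4 Atp7b-/- arrays without it. All mice were C57Bl/6 and 3 months of age, per the labels, and the 4 remaining arrays came from wild type mice without zinc. The wild type arrays are quoted only as a reference level. All 8 Atp7b-/- arrays carry the same genotype, so the comparison shows what differed between zinc-treated and untreated mutants. Nothing in the labels states how much zinc was given, by which route or for how long, or whether the mice were male or female. The labels speak of 4 mutant mice given zinc, and do not say that each remaining array came from a separate animal, so the p-values reflect how far arrays of a group differ, and some of that may be technical.

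ATP7B is the copper-transporting ATPase of the hepatocyte. It loads copper onto ceruloplasmin and moves excess copper into bile, and its loss in people causes Wilson disease, in which copper builds up in the liver. Zinc salts are used as a treatment of that disease. They induce metallothioneins, small cysteine-rich proteins that bind both metals, and in the gut this holds copper back from the blood. Metallothionein genes are switched on by the metal sensor MTF1, which reads short metal response elements near their start sites.

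RNA was measured on an Affymetrix mouse array, whose probe sets each report a stretch of a transcript, and all levels below are deposited log2 values. A change is the mean of the zinc-treated arrays minus the mean of the untreated arrays, given with its standard error (SE), and a difference of 1 is a factor of 2. Genes are said to have risen or fallen where limma gave a Benjamini-Hochberg adjusted p below 0.05 over the 18193 genes tested, and every adjusted p below is from that fit unless another is named. Array medians lay between 5.63 and 5.71. Before any result, 3 facts on the arrays need stating. The mean difference between 3' and 5' probe sets of the actin and Gapdh controls, a sign of RNA quality, was 0.792 to 0.881 in the untreated arrays and 0.541 to 0.739 in the zinc-treated ones, so this difference and zinc cannot be told apart. Transcripts of pancreatic acinar cells, which make digestive enzymes, were found in zinc-treated replicates 2 and 3, and the main counts are given without them too. Of the 140 changed genes named here, 52 lost their call when both were left out. Untreated replicate 1 correlated least with its group (median r 0.991 against 0.996 for the other 3). The label of the tissue held for the hepatocyte markers, whose mean over 11 genes lay between -0.11 and 0.06 of the wild type mean in all 8 arrays.

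Of 18193 genes, 1190 changed (6.54%): 309 rose with zinc (1.70%) and 881 fell (4.84%). Among these, 38 rose and 167 fell by at least 1 log2 unit, and the arrays of both groups did not overlap for 1120. Over all 18193 genes, called or not, the arrays of both groups did not overlap for 2787 (15.3%). Counts of list members below are to be read beside the shares of 1.70% and 4.84%. Rises made up 26.0% of the calls, 40.0% after quantile normalization and 19.7% after median centring. Without zinc-treated replicates 2 and 3, 157 genes rose (0.863%) and 457 fell (2.51%), and 526 of the 1190 were called again in the same direction. A test against a minimum change of 1 log2 unit left 13 genes. Those that fell were Robo1, Birc5, Stap1, Cfap53, Esco2, Slc35f2, Ttk, Bub1, Ncapg, Anln, Spink5 and Rsph3a, and Ugt2b38 alone rose.

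**Figure D1:**
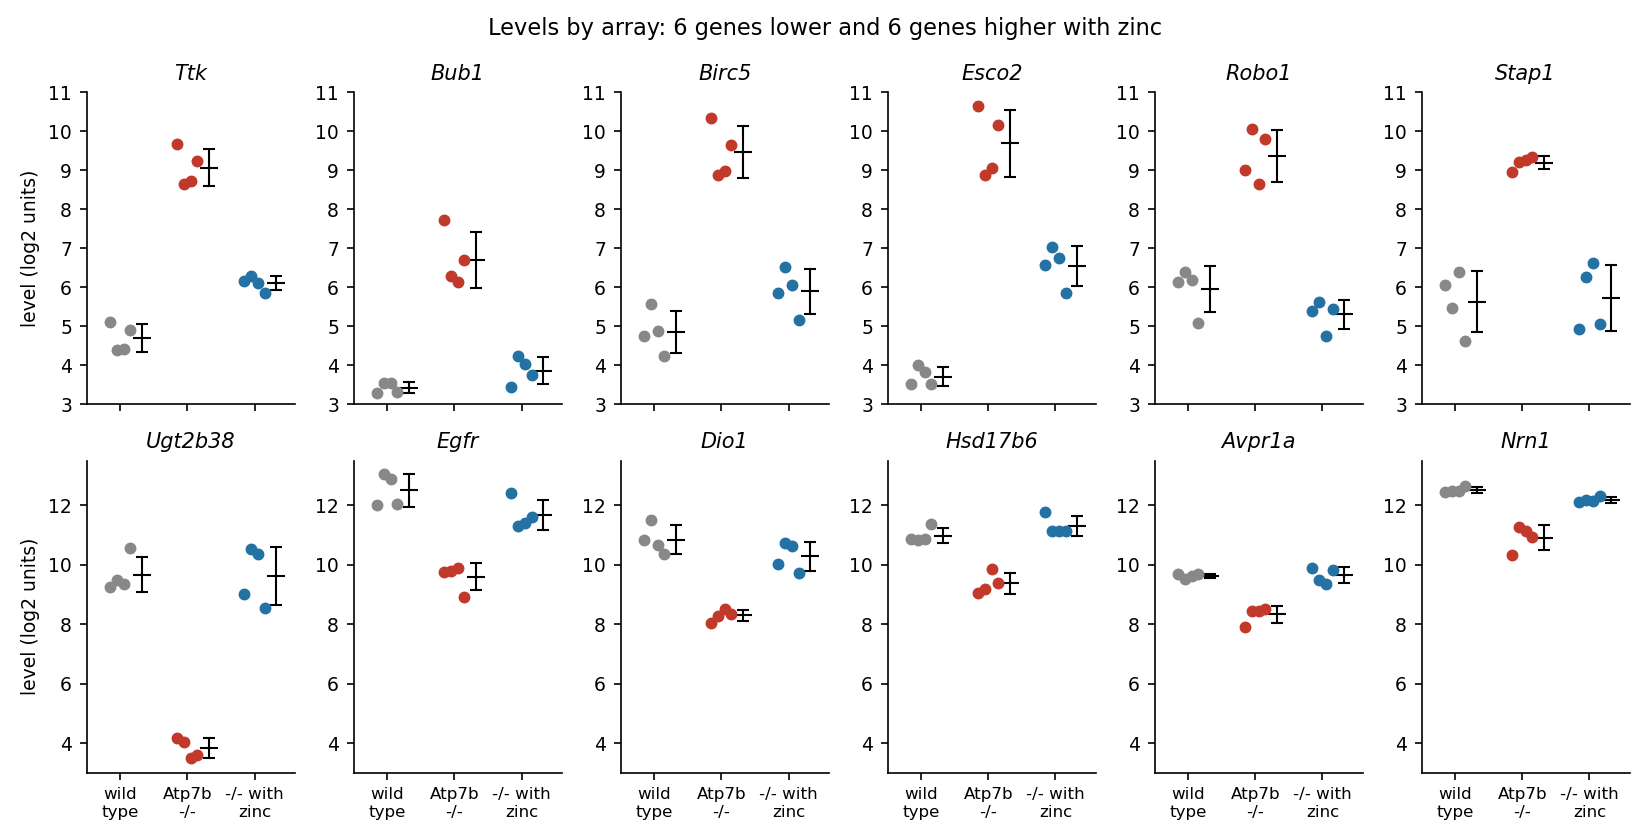
Level of 12 genes in each array (log2 units; points are arrays, n = 4 per group, with the mean and SD beside them) in wild type, untreated Atp7b-/- and zinc-treated Atp7b-/- liver. In each panel the zinc-treated points lie wholly below (upper row) or wholly above (lower row) the untreated ones, and their distance from the wild type points differs from gene to gene. Genes with the largest changes were named only where these groups did not overlap, so this separation was a condition of choice.

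The targeted gene was set first against the labels. Atp7b measured 7.17, 7.25, 7.11 and 6.91 in the untreated arrays and 6.85, 6.92, 6.57 and 6.98 in the zinc-treated ones, against 8.51 to 8.69 in wild type, and the change with zinc was -0.28 ± 0.10 (adjusted p = 0.114). All 8 mutant arrays lay below all wild type arrays. The labels do not say which part of the gene was altered, so how far this probe set covers it is not known.

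Metallothionein RNA was high in both mutant groups and did not pass the test between them. Mt1 stood at 14.79, 14.64, 14.52 and 14.69 in untreated liver and at 14.62, 14.33, 14.37 and 14.29 with zinc, against 7.14 to 11.17 in wild type. That is close to the top of the scale (15.2), where a further rise could go unseen. A second, dimmer Mt1 probe set averaged 9.12 in untreated and 9.29 in zinc-treated liver, against 5.33 in wild type. Its change was 0.17 ± 0.60 (limma, adjusted p = 0.915 over probe sets). The SD of that probe set among the untreated arrays was 1.725, too wide to settle whether Mt1 rose further. Mt2 read 14.19, 14.01, 13.17 and 13.73 without zinc and 14.16, 12.996, 13.68 and 13.56 with it, a change of -0.17 ± 0.42 (adjusted p = 0.856). The 2 groups overlapped for both genes. Neither Mtf1 (-0.18 ± 0.09, adjusted p = 0.256) nor the zinc exporter gene Slc30a1 (0.27 ± 0.17, adjusted p = 0.392) passed the test. Slc30a10, of the same gene family, did not pass either (-0.14 ± 0.18, adjusted p = 0.694).

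The promoters of Mt1 and Mt2 are shown because MTF1 targets are the textbook readout of zinc. They lie at chr8:94178839-94179138 (plus strand) and chr8:94172368-94172667 (plus strand) (RefSeq, GRCm38.p6, from 250 bases before to 50 after the start), and capitals mark matches to the core of the metal response element, TGCACNC or TGCGCNC on either strand.

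Mt1: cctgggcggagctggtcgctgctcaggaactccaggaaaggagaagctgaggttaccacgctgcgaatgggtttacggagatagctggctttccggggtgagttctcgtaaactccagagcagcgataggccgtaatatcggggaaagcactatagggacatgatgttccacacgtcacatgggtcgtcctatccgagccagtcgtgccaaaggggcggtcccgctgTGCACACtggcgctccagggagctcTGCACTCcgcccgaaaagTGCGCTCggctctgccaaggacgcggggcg

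Mt2: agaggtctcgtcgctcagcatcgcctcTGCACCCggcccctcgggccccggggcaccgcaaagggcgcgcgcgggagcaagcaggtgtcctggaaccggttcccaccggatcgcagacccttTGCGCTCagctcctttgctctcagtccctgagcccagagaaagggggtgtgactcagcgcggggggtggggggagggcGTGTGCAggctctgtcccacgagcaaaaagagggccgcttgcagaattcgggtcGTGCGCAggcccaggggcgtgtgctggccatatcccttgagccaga

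Mt1 had 3 matches and Mt2 had 4, where 25.7% of all 32851 RefSeq promoter windows of this length held at least 1. The Slc30a family is known for zinc export from the cytosol. Of its 10 measured members only Slc30a8 fell, at 4.64 to 5.05 untreated and 4.199 to 4.54 with zinc. In wild type it stood at 4.18 to 4.35, and all of these are low levels on these arrays. The Slc39a family imports zinc, and 3 of 14 measured members fell (21.4%, against 4.84% of all genes). These were Slc39a11 (-0.57 ± 0.09), Slc39a3 (-0.40 ± 0.09) and Slc39a14 (-0.42 ± 0.12). Slc39a11 measured 9.73, 9.78, 9.83 and 9.88 untreated and 9.22, 9.39, 9.04 and 9.28 with zinc, without overlap. Slc39a3 and Slc39a14 were not called without zinc-treated replicates 2 and 3 (adjusted p = 0.132 and 0.168), and without untreated replicate 4 only 1 importer was. A second Slc39a3 probe set of similar brightness (group means of 6.75 to 6.90) changed by 0.05 and did not pass. Averaging both Slc39a3 probe sets lost the call. Of 25 genes of copper handling, 1 rose and 1 fell. Sco2, an assembly factor of cytochrome c oxidase, rose (0.42 ± 0.11), and Cox17, which hands copper to that factor, fell (-0.35 ± 0.08), though a dim Cox17 probe set free of cross-hybridisation (group means of 4.02 to 4.12) gave 0.04. Neither Sco2 nor Cox17 was called without zinc-treated replicates 2 and 3 (adjusted p = 0.13 and 0.126). Among 19 genes of iron handling, Slc11a2, the divalent metal importer, rose (0.47 ± 0.13) and Hamp2, a hepcidin, fell (-1.16 ± 0.28), with a value of 0.07 from the probe set free of cross-hybridisation, which is dim (4.52 to 4.65 against 11.68 to 13.31 for the bright one). The fall of Hamp2 was not called without zinc-treated replicates 2 and 3 (adjusted p = 0.26). Each of these counts rests on 1 to 3 genes, and apart from Slc30a8 and Slc39a11 their calls were lost when some single arrays were left out.

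Genes of mitosis changed together. Of 70 measured genes that build the spindle, condense chromosomes, hold the spindle checkpoint or cut the cell in 2, 52 fell (74.3%, against 4.84% of all genes) and none rose, with a median change of -1.002 against 0.01 for all genes. The list mean above wild type was 2.33, 1.79, 1.84 and 2.04 in the untreated arrays and 0.94, 1.03, 1.01 and 0.83 in the zinc-treated ones. Each zinc-treated array therefore lay below each untreated array and above all wild type arrays, which ran from -0.15 to 0.08. Leaving out zinc-treated replicates 2 and 3 gave 48 falls and a median of -1.04, and leaving out any single array gave 49 to 53.

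Ttk encodes the kinase MPS1, which starts the spindle checkpoint. It measured 9.66, 8.64, 8.72 and 9.22 in untreated liver and 6.15, 6.29, 6.10 and 5.85 with zinc, against 4.38 to 5.11 in wild type, a change of -2.96 ± 0.22 (adjusted p = 1.45e-05). Its other probe set gave -0.80. Bub1, a kinetochore kinase of the same checkpoint, stood at 7.71, 6.29, 6.12 and 6.69 untreated and at 3.44, 4.22, 4.02 and 3.74 with zinc, against 3.29 to 3.55 in wild type (-2.85 ± 0.28, adjusted p = 7.11e-05). Its zinc-treated arrays reached into the wild type range, while those of Ttk did not. The other Bub1 probe set, dim in all groups (means of 3.27 to 3.35), gave -0.07 and did not pass. Birc5 encodes survivin, a part of the chromosomal passenger complex and an inhibitor of apoptosis. Its levels were 10.34, 8.88, 8.98 and 9.64 without zinc and 5.85, 6.52, 6.06 and 5.15 with it, against 4.24 to 5.55 in wild type (-3.57 ± 0.35, adjusted p = 7.94e-05). Esco2, the acetyltransferase that locks cohesin onto sister chromatids, read 10.64, 8.87, 9.05 and 10.16 untreated and 6.56, 7.01, 6.74 and 5.84 with zinc, against 3.503 to 4.00 in wild type (-3.14 ± 0.35, adjusted p = 0.000183). Despite that fall, each zinc-treated array stayed above every wild type array for Esco2. In the untreated group, replicate 1 was the highest array for all 4 genes.

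Ncapg, a condensin subunit, went from levels of 7.37 to 8.06 untreated to levels of 5.10 to 5.37 with zinc (-2.42 ± 0.14, adjusted p = 1.81e-06), with an SD of 0.12 among the zinc-treated arrays. Anln, which anchors the contractile ring, went from levels of 6.61 to 7.68 untreated to levels of 4.66 to 4.80 with zinc, inside the wild type range of 4.45 to 5.01 (-2.37 ± 0.20). Shcbp1 (-1.85 ± 0.15), which acts at the midbody, and Spc24 (-1.48 ± 0.13), a subunit of the kinetochore complex NDC80, fell with adjusted p of 2.61e-05 and 3.59e-05. Cdk1, the kinase that drives entry into mitosis, measured 10.13, 9.27, 9.59 and 9.66 untreated and 8.05, 8.01, 7.85 and 7.82 with zinc (-1.73 ± 0.17, adjusted p = 7.11e-05). Genes of the anaphase-promoting machinery fell too: Ube2c, its ubiquitin-conjugating enzyme, by 1.59, its activator Cdc20 by 1.13, and Mad2l1, its checkpoint inhibitor, by 0.98. Cdc20 and Mad2l1 stayed far above wild type with zinc, at 8.82 to 9.18 against 5.63 to 6.57 and at 9.45 to 9.77 against 6.24 to 6.83. Other members that fell were Aurkb (-1.33 ± 0.18), Top2a (-1.04 ± 0.21), Plk1 (-0.88 ± 0.14) and Cenpa (-0.41 ± 0.11), the last at the small end of the list. The call of Cenpa was lost in 11 of the 24 alternatives, with an adjusted p of 0.183 without zinc-treated replicates 2 and 3, while a dimmer Cenpa probe set gave -1.25. Ccnb2, a mitotic cyclin, measured 7.55, 4.98, 5.04 and 6.08 untreated and 4.26, 4.83, 4.58 and 4.61 with zinc and did not pass (-1.34 ± 0.43, adjusted p = 0.0821), its untreated arrays being far apart.

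Some of the 18 members that did not pass were measured by a probe set that differs from its neighbours. The probe set used for each gene was the brightest, and for Bub1b (0.14 ± 0.14) and Kif2c (0.03 ± 0.11) that probe set read nearly alike in all 3 groups. The remaining Bub1b probe sets fell by 0.81 and 1.21 (limma, adjusted p = 0.00577 and 0.00192 over probe sets). Of the 3 remaining Kif2c probe sets, 2 fell, by 0.87 and 1.57. Foxm1, the transcription factor of mitotic genes, gave 0.14 ± 0.11 from its brightest probe set and -0.48 from another of its 4 (adjusted p = 0.041 over probe sets). Mki67, the usual proliferation marker, has a single probe set here, at 4.92 to 6.29 untreated, 5.09 to 5.61 with zinc and 4.996 to 5.82 in wild type (-0.01 ± 0.26, adjusted p = 0.987), and did not separate any of the groups.

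Mitotic genes are known to share a short promoter element, the cell cycle homology region (TTTGAA or TTCGAA), often with a CCAAT box upstream, through which the DREAM and MuvB complexes hold them off in resting cells and switch them on late in the cycle. The promoter windows of 4 members that fell are shown with both elements in capitals (either strand). They are Ttk at chr9:83834439-83834738 (plus strand), Bub1 at chr2:127831810-127832109 (minus strand), Ube2c at chr2:164769679-164769978 (plus strand) and Cdc20 at chr4:118437294-118437593 (minus strand), from RefSeq on GRCm38.p6, each 5' to 3' on the gene's strand.

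Ttk: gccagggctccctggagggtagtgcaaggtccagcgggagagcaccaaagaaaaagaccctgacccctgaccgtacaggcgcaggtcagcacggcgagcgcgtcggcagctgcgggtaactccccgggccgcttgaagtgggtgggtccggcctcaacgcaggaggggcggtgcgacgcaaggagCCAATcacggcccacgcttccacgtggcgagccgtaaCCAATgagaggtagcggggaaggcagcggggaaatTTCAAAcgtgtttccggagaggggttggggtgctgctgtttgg

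Bub1: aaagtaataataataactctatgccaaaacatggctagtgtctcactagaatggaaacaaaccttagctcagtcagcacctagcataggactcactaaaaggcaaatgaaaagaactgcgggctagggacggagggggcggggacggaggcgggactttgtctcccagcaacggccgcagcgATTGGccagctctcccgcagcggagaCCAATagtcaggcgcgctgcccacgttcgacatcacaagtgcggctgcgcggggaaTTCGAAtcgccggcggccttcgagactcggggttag

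Ube2c: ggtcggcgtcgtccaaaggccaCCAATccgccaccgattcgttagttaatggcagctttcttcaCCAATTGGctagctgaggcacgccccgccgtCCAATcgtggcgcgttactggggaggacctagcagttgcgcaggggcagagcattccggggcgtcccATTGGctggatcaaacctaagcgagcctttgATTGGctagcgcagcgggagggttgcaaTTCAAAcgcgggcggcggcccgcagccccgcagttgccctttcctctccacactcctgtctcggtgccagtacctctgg

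Cdc20: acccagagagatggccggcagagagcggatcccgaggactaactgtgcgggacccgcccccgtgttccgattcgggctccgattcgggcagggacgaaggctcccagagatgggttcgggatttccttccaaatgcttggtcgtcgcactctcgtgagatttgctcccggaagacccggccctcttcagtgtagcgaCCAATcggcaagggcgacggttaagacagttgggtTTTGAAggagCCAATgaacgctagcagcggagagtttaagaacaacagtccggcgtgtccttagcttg

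In these windows the homology element begins 7 bases after the start site in Ttk, 14 after it in Bub1, 29 before it in Ube2c and 18 before it in Cdc20. RefSeq windows were matched for 56 of the 70 mitosis genes (62 windows), and 72.6% of these held the element, against 19.2% of all 32851 windows. The CCAAT box stood in 69.4% and in 37.4%. Windows of members that fell held the homology element in 75.6% of 45 cases, and those of members that did not pass in 64.7% of 17, a difference that was not tested. Some windows of members that fell thus lacked the homology element, which says only that these letters are not in those 300 bases.

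**Figure D2:**
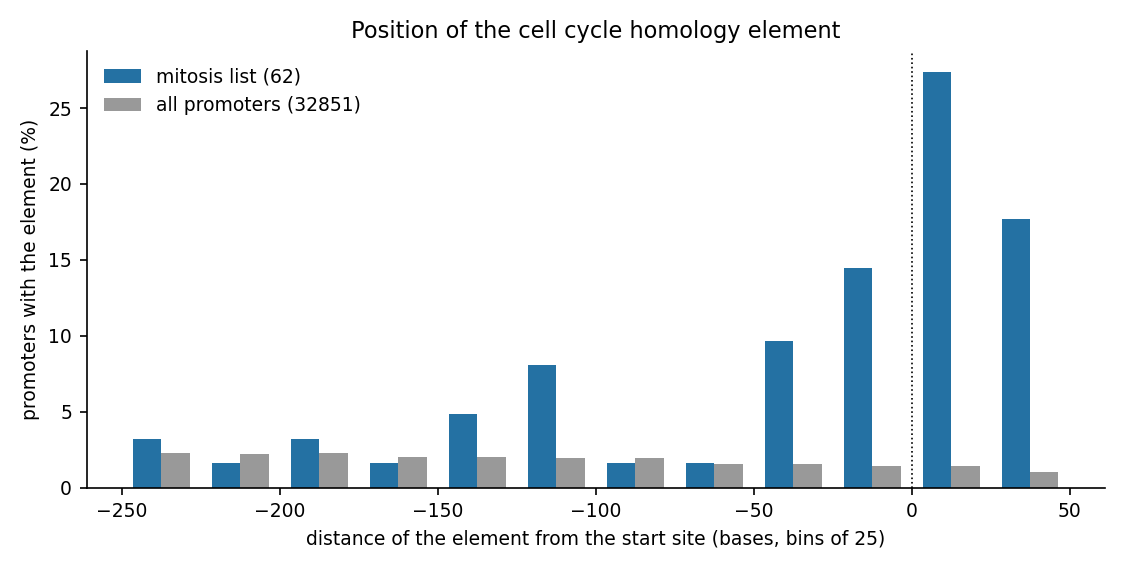
Share of promoter windows (percent) in which the cell cycle homology element begins in each 25-base bin, by distance from the start site (bases), for 62 windows of the mitosis list and all 32851 RefSeq windows. In the mitosis list the element lies mostly within 50 bases of the start site, reaching 27.4% in the 25 bases after it, while all windows stay between 1.06% and 2.30% per bin.

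Genes of DNA replication did not follow the mitotic genes. Of 38 measured members, which make up the origin complex, the MCM helicase, the polymerases and the supply of nucleotides, 1 rose and 1 fell (2.63% each, near the background), and the median change was -0.02. The list mean lay at 0.39, 0.04, -0.07 and 0.03 above wild type in the untreated arrays and at -0.06, 0.17, 0.01 and -0.02 in the zinc-treated ones, with untreated replicate 1 and zinc-treated replicate 2 above the wild type arrays, which ran from -0.05 to 0.06. Mcm6 measured 7.14, 6.00, 6.36 and 6.20 untreated and 5.40, 6.33, 5.43 and 6.12 with zinc (-0.60 ± 0.28, adjusted p = 0.222). Mcm5 read 6.70, 6.17, 5.45 and 5.98 and 5.67, 6.97, 5.97 and 6.00 (0.08 ± 0.27), and Pcna, the sliding clamp, 10.12, 9.53, 9.61 and 9.63 and 9.78, 9.96, 9.82 and 9.70 (0.09 ± 0.11). None of the 3 passed the test. Rrm2, the regulated subunit of ribonucleotide reductase, was the member that fell (-1.57 ± 0.42, adjusted p = 0.0434). Its untreated arrays ran from 6.40 to 9.14 and overlapped the zinc-treated ones, and the call was lost when any of 10 single arrays was left out. Tipin, of the fork protection complex, rose by 0.33 (adjusted p = 0.0386). Its call was lost in 10 of the 24 alternatives, with an adjusted p of 0.253 without zinc-treated replicates 2 and 3.

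Replication genes are known for E2F sites rather than the homology element, and Mcm6 and Mcm5 are shown for comparison with the mitotic promoters. They lie at chr1:128359656-128359955 (minus strand) and chr8:75109259-75109558 (plus strand), and capitals mark E2F sites (TTTGGCGC, TTTCGCGC or TTTCCCGC, either strand, which can overlap each other) and CCAAT boxes.

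Mcm6: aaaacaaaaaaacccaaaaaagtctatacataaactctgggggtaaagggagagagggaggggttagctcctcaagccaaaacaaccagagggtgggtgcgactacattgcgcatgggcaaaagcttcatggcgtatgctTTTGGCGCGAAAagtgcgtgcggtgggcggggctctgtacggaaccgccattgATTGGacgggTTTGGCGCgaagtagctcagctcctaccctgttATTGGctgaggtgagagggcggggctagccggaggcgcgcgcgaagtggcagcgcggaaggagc

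Mcm5: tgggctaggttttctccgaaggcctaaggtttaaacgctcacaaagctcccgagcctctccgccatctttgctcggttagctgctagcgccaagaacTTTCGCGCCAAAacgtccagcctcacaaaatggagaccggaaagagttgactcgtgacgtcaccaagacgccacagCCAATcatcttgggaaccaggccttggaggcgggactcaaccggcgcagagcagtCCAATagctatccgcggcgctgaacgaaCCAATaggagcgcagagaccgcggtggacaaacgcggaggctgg

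Mcm6 had 3 E2F matches and Mcm5 had 2, and neither window held the homology element. Over the 35 windows matched to 30 replication genes, 37.1% held an E2F site, against 8.06% in the mitosis list and 1.84% of all windows. The homology element stood in 17.1%.

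Among 30 genes of G1 and the E2F family, 3 rose and 1 fell. E2f8, an E2F repressor that is high in dividing and polyploid hepatocytes, measured 6.12, 5.36, 5.38 and 6.02 in untreated liver and 7.16, 6.90, 6.59 and 7.05 with zinc, against 7.27 to 8.11 in wild type (1.21 ± 0.21, adjusted p = 0.00401). It was thus low in the untreated mutants, while the mitotic genes were high there. Cdk6, a G1 kinase, rose by 0.77, to levels of 8.73 to 8.88, around the wild type range of 8.66 to 8.89 (adjusted p = 0.00397). Cdc25a rose (0.39 ± 0.11, adjusted p = 0.0489), a call lost in 17 of the 24 alternatives, among them the one without zinc-treated replicates 2 and 3 (adjusted p = 0.0933). E2f2, an activator E2F, fell (-0.67 ± 0.11, adjusted p = 0.00332). Of 30 genes of DNA repair and checkpoints, 9 fell (30.0%) and 1 rose, with 5 falls left without zinc-treated replicates 2 and 3. Those that fell included Brca1 (-0.89 ± 0.16), Fanci (-0.84 ± 0.15), Trip13 (-0.72 ± 0.15), Exo1 (-0.64 ± 0.12), Chek2 (-0.61 ± 0.11) and Atr (-0.46 ± 0.08), which act in homologous recombination, crosslink repair and damage signalling. The falls of Atr and Chek2 were small but even, with 8.59, 8.56, 8.78 and 8.54 against 8.15, 8.27, 8.17 and 8.04 for Atr. Atm, the sister kinase of Atr, rose (0.64 ± 0.16, adjusted p = 0.0301), with overlapping arrays, and was not called without zinc-treated replicates 2 and 3 (adjusted p = 0.201).

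**Figure D3:**
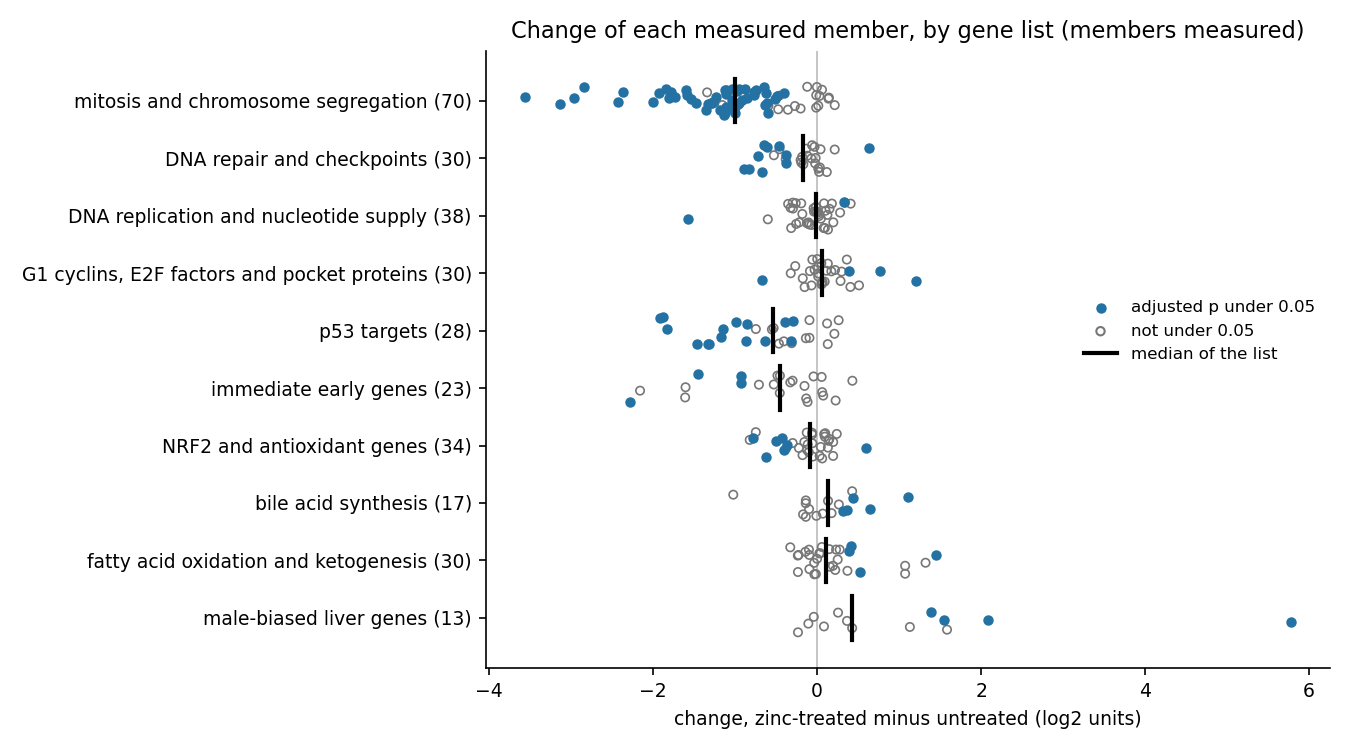
Change (zinc-treated minus untreated, log2 units) of each measured member of 10 gene lists, with the number measured in brackets. Filled points passed the test (adjusted p below 0.05), open points did not, and the bar is the list's median: -1.002 for mitosis, -0.54 for p53 targets and -0.02 for replication.

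Many p53 targets fell, and unevenly among the zinc-treated arrays. The factor p53 is switched on by DNA damage and other stress and turns on genes that stop the cycle or start cell death. Of 28 measured targets 15 fell (53.6%) and none rose, with a median of -0.54. The list mean above wild type was 1.30, 1.03, 1.13 and 1.17 in the untreated arrays and 0.19, 0.85, 0.69 and 0.19 in the zinc-treated ones. Zinc-treated replicates 1 and 4 lay near wild type, and replicates 2 and 3, which carried the pancreatic transcripts, lay in between. Without those 2 arrays the median was -0.80 and 14 targets fell. The count was 8 without zinc-treated replicate 4 and 9 without untreated replicate 1.

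Cdkn1a encodes p21, the inhibitor of cyclin-dependent kinases. It measured 11.88, 11.11, 11.34 and 11.10 untreated and 8.61, 10.26, 10.30 and 8.58 with zinc, against 7.29 to 8.28 in wild type (-1.92 ± 0.39, adjusted p = 0.0102, and -2.76 without zinc-treated replicates 2 and 3). Phlda3, which restrains AKT, read 10.67, 9.50, 9.97 and 9.32 untreated and 6.92, 9.12, 8.94 and 6.93 with zinc (-1.89 ± 0.47, adjusted p = 0.0285). Eda2r, a receptor of the TNF family, read 7.76, 6.42, 6.76 and 6.95 and 4.17, 6.29, 5.74 and 4.37 (-1.83 ± 0.41, adjusted p = 0.0171). In all 3 genes replicates 2 and 3 were more than 1 log2 unit above replicates 1 and 4, and the zinc-treated group as a whole still lay below the untreated one. Without zinc-treated replicate 4 the calls of Phlda3 and Eda2r were lost, and that of Phlda3 also without zinc-treated replicate 1 or untreated replicate 1 or 3. Ccng1, Mdm2, the ligase that degrades p53, and Zmat3 showed the same order at a smaller scale, with Mdm2 at 9.57, 10.40, 10.08 and 9.49 with zinc. Btg2 (-1.47 ± 0.26), Ddit4l (-1.33 ± 0.26), Gtse1 (-1.15 ± 0.21) and the nuclease gene Aen (-0.99 ± 0.18) fell too. Gtse1, which restrains p53 in G2, is also a mitotic gene. Bbc3, which encodes the cell death inducer PUMA (0.13 ± 0.11), and Sesn1 (0.26 ± 0.10) did not pass, and of 21 genes of the Bcl2 family and caspases only Apaf1 (-0.84 ± 0.22) and Bak1 (-0.47 ± 0.11) fell, and neither without untreated replicate 1 or 4.

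The window of the upstream Cdkn1a start is shown because it alone in the p53 list (28 windows of 20 genes) matched the p53 consensus as searched. That search asked for both half-sites, each RRRCWWGYYY without a mismatch, and allowed a short spacer between them (R is A or G, W is A or T, Y is C or T). Capitals mark the match with its spacer. Half-sites with a mismatch, such as the bases tgacatgttc right after the capitals, were not searched, so the capitals need not be the site that p53 binds. The window lies at chr17:29090729-29091028 (plus strand), the match begins 73 bases before that start, and 0.0731% of all windows held such a match.

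Cdkn1a: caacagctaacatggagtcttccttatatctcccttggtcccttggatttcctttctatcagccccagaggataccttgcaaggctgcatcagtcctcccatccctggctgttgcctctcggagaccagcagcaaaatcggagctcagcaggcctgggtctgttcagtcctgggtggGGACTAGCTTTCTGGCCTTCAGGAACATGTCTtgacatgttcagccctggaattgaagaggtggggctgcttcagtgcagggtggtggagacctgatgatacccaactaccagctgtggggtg

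**Figure D4:**
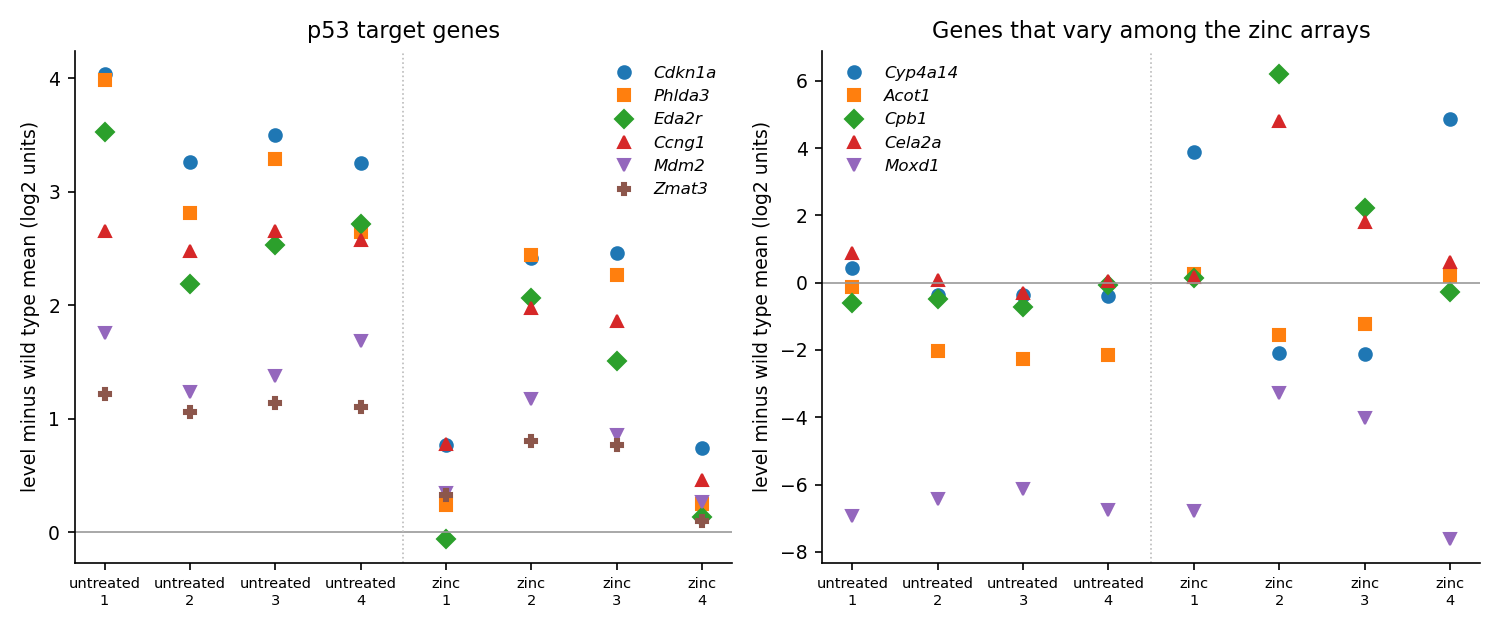
Level minus the wild type mean (log2 units) in each of the 8 Atp7b-/- arrays, for 6 p53 targets (left) and 5 genes that vary among the zinc-treated arrays (right). Zinc-treated replicates 2 and 3 lie above replicates 1 and 4 for the p53 targets and for the pancreatic genes Cpb1 and Cela2a, and below them for Cyp4a14 and Acot1.

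Immediate early genes, which respond to stress and growth signals within minutes, fell in part. Of 23 measured, 4 fell (17.4%) and none rose, with a median of -0.45. Jun, a subunit of the AP-1 factor, measured 10.20, 11.01, 8.84 and 11.19 untreated and 7.09, 8.07, 8.38 and 8.54 with zinc (-2.29 ± 0.47, adjusted p = 0.011). Zfp36, which speeds the decay of inflammatory mRNAs, read 11.75, 11.74, 10.40 and 11.84 and 9.69, 10.04, 9.73 and 10.45 (-1.45 ± 0.32, adjusted p = 0.0157). Atf3 fell (-0.93 ± 0.20), as did Ier5 (-0.93 ± 0.18). Untreated replicate 3 was the lowest untreated array for Jun, Zfp36 and Atf3, and also for Fos (9.12, 9.81, 6.15 and 8.63) and Egr1 (11.12, 11.55, 7.07 and 11.97), which did not pass (adjusted p = 0.05, just over the threshold, and 0.339). Without that array 9 members fell, and without zinc-treated replicates 2 and 3 only Ier5 did.

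Outside these lists, several of the deepest falls were in genes with low levels in wild type liver. Robo1, a receptor for the guidance cue Slit, measured 8.99, 10.05, 8.63 and 9.79 in untreated liver and 5.39, 5.61, 4.74 and 5.45 with zinc, against 5.08 to 6.38 in wild type (-4.07 ± 0.33, adjusted p = 2.57e-05). The 2 remaining Robo1 probe sets, both dim, changed by -0.14 and -0.24 and did not pass. Stap1, a signalling adaptor best known from B cells, read 8.94, 9.21, 9.27 and 9.33 and 4.93, 6.26, 6.63 and 5.06, against 4.62 to 6.38 (-3.47 ± 0.39, adjusted p = 0.000217). Untreated Stap1 levels lay close together, and of the zinc-treated ones replicates 2 and 3 were the higher. Cfap53, a gene of cilia, went from levels of 7.52 to 9.20 untreated to levels of 4.99 to 5.32 with zinc, against 4.99 to 5.27 in wild type (-3.21 ± 0.28), and Slc35f2, a solute carrier, from levels of 6.83 to 8.64 untreated to levels of 4.499 to 4.89 with zinc, against 4.43 to 4.79 (-2.96 ± 0.27). Rsph3a, of the radial spokes of cilia, had the smallest adjusted p of the genes named here (1.82e-07), at 7.51, 7.18, 7.41 and 7.42 untreated and 5.54, 5.53, 5.59 and 5.65 with zinc. A second, dim Rsph3a probe set (group means of 4.63 to 4.66) changed by 0.03, and a dim one of Slc35f2 by -0.02. Neither of these passed. Spink5, a protease inhibitor of skin, fell (-1.87 ± 0.15). Zinc-treated arrays overlapped the wild type arrays for Robo1, Cfap53, Slc35f2 and Stap1, and the calls of all 6 genes held in each alternative in which they were tested (23 for Spink5 and 24 for the others).

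A second set of deep falls rested on arrays that were farther apart. Obp2a, an odorant-binding protein, had untreated levels of 10.09, 10.70, 10.13 and 10.71 and zinc-treated levels of 7.08, 5.66, 6.57 and 4.85, while 3 wild type arrays lay between 5.04 and 5.97 and the other at 10 (-4.37 ± 0.85, adjusted p = 0.00816, and 0.0563 without zinc-treated replicates 2 and 3). Abcb1b, a drug efflux pump of the P-glycoprotein family, stood at 9.92, 5.34, 8.07 and 8.38 untreated, with replicate 2 near the wild type range of 4.66 to 5.27, and at 4.42, 4.89, 4.999 and 4.22 with zinc (-3.30 ± 0.66, adjusted p = 0.00963). Cox6b2, the testis form of a cytochrome c oxidase subunit, fell (-3.08 ± 0.63), as did the testis gene Tex19.1 (-2.48 ± 0.49), the formin gene Diaph3 (-2.74 ± 0.55) and Wfdc12 (-2.50 ± 0.38). Sult1e1, which inactivates oestrogens by sulfation, read 9.35, 7.27, 7.21 and 7.41 untreated and 4.55, 6.78, 4.92 and 4.32 with zinc, against 4.15 to 4.32 in wild type (-2.67 ± 0.51, adjusted p = 0.00773). Zinc-treated replicate 2 was the highest of its group. Gria3, a glutamate receptor subunit, split the zinc-treated group as the p53 targets did, at 9.26, 9.26, 9.26 and 8.88 untreated and 5.93, 8.37, 8.49 and 5.32 with zinc (-2.14 ± 0.59, adjusted p = 0.0471), and its call was lost without any 1 of the untreated arrays, zinc-treated replicate 1 or 4, or wild type replicate 1, 3 or 4.

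Several of the largest rises were in genes that hepatocytes are known to express. Ugt2b38, a UDP-glucuronosyltransferase that male mouse liver makes more of, measured 4.18, 4.03, 3.51 and 3.59 in untreated liver and 9.03, 10.54, 10.34 and 8.54 with zinc, against 9.26 to 10.55 in wild type. Its change of 5.78 ± 0.40 (adjusted p = 1.11e-05) brought it into the wild type range in part of the group. Egfr, the receptor of epidermal growth factor, stood at 9.77, 9.80, 9.89 and 8.93 untreated and at 12.41, 11.30, 11.41 and 11.62 with zinc, against 12.01 to 13.07 in wild type (2.09 ± 0.30, adjusted p = 0.00114). Of 7 Egfr probe sets 4 rose, by 0.67 to 2.09, and none fell. Dio1, which activates thyroid hormone, read 8.05, 8.29, 8.51 and 8.34 and 10.03, 10.73, 10.63 and 9.71 (1.98 ± 0.25, adjusted p = 0.000427). Hsd17b6, a steroid dehydrogenase, read 9.06, 9.18, 9.86 and 9.40 and 11.79, 11.13, 11.13 and 11.12 (1.92 ± 0.19, adjusted p = 8.88e-05), with no zinc-treated array below 11.12, and a second, dim Hsd17b6 probe set did not pass (-0.01). Avpr1a, the vasopressin receptor of liver, read 7.89, 8.45, 8.44 and 8.52 and 9.90, 9.47, 9.36 and 9.84, against 9.53 to 9.68 in wild type (1.32 ± 0.15, adjusted p = 0.000183), and both its probe sets rose. Nrn1, the gene of neuritin, which is abundant in this wild type liver, rose from levels of 10.32 to 11.28 untreated to levels of 12.10 to 12.32 with zinc (1.27 ± 0.16). The largest changes were named only where the groups did not overlap, so the separation of these 6 genes was a condition of choice.

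Pcp4l1 (1.48 ± 0.20) and Osgin1 (1.22 ± 0.20), a growth inhibitor gene, also rose. Pcp4l1 with zinc, at 7.72, 7.86, 8.01 and 8.77, lay above the wild type arrays, at 7.55 to 7.64. Ctse, an aspartic protease of endosomes, rose from 8.46, 8.43, 5.43 and 5.25, with 2 arrays high and 2 low, to 10.70, 9.98, 10.02 and 9.79 (3.23 ± 0.71, adjusted p = 0.0158), above all wild type arrays too, at 7.07 to 9.33. Its other probe set gave -0.68 and did not pass, and the Ctse call was lost without untreated replicate 4 and without zinc-treated replicates 2 and 3 together. Adh6-ps1, an alcohol dehydrogenase pseudogene, rose (1.85 ± 0.50, adjusted p = 0.0434), a call lost without any 1 of 8 arrays.

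Sex-biased genes of mouse liver follow the pulses of growth hormone, which act through STAT5B, and Socs2 is a direct target of that signal. Of 13 measured male-biased genes 4 rose (30.8%, against 1.70% of all genes) and none fell, with a median of 0.43. The list mean relative to wild type was -2.29, -1.50, -1.50 and -1.83 in the untreated arrays and -0.76, -0.32, -0.48 and -1.17 in the zinc-treated ones. Zinc-treated replicates 2 and 3, which carried the pancreatic transcripts, thus lay closest to wild type. The rises were Ugt2b38, Egfr, Hsd3b5 and Slco1a1. Hsd3b5, a steroid dehydrogenase of male liver, measured 9.68, 12.06, 11.79 and 11.47 untreated and 12.90, 13.06, 12.90 and 12.33 with zinc, against 12.97 to 13.25 in wild type (1.55 ± 0.38, adjusted p = 0.0288). Slco1a1, an organic anion importer, read 9.67, 11.59, 11.83 and 11.26 and 12.54, 12.51, 12.59 and 12.27, against 12.77 to 12.98 (1.39 ± 0.34, adjusted p = 0.0265). Untreated replicate 1 was the lowest array for both. Elovl3, a fatty acid elongase, ran from 9.25 to 12.15 untreated and from 12.53 to 13.01 with zinc, and did not pass (1.58 ± 0.47, adjusted p = 0.0623). Moxd1, a monooxygenase, stayed low in zinc-treated replicates 1 and 4, at 4.48, 7.97, 7.24 and 3.63 with zinc, 4.32, 4.83, 5.14 and 4.51 untreated and 9.82 to 12.003 in wild type (1.13 ± 0.79, adjusted p = 0.442). For Ugt2b38 only zinc-treated replicates 2 and 3 thus lay in the wild type range, and for Moxd1 all zinc-treated arrays stayed below it. The list count was 2 without untreated replicate 4 or without any of zinc-treated replicates 1, 2 and 3. Without zinc-treated replicates 2 and 3 together 2 members rose and the median was 0.17, and leaving out untreated replicate 1 as well brought the median to 0.01. Of 12 female-biased genes 1 fell, Cyp17a1, a steroid hydroxylase (-1.33 ± 0.20, adjusted p = 0.00165), whose zinc-treated arrays, at 6.05 to 6.33, lay below those of wild type, at 7.01 to 7.17. The female-biased list mean relative to wild type was 0.32, -0.03, -0.125 and 0.48 in zinc-treated replicates 1 to 4.

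Of 21 genes of the growth hormone and IGF axis 3 rose (14.3%, against 1.70% of all genes). Socs2 measured 6.55, 6.67, 7.62 and 8.42 untreated and 8.75, 9.72, 8.43 and 10.23 with zinc (1.97 ± 0.51, adjusted p = 0.0366). Igfbp2, an IGF-binding protein, went from levels of 11.15 to 11.73 untreated to levels of 12.04 to 13.01 with zinc (1.11 ± 0.20, adjusted p = 0.00522), and Stat5b itself rose by 0.28 (adjusted p = 0.0498). The count fell to 1 without zinc-treated replicates 2 and 3, and likewise without any 1 of untreated replicates 1 to 3 or zinc-treated replicates 1, 2 and 4. Among 20 steroid dehydrogenases and related enzymes, 5 rose and Cyp17a1 fell. Besides Hsd17b6 and Hsd3b5 the rises were Akr1c14 (0.80 ± 0.17), Hsd17b2 (0.60 ± 0.12) and Hsd3b3 (0.46 ± 0.09), and this count was 4 or 5 with any single array left out and 2 without zinc-treated replicates 2 and 3. Of 27 drug-metabolising cytochromes P450, 3 rose (11.1%) and 2 fell (7.41%, against 4.84% of all genes). Cyp2c38 (1.83 ± 0.46), Cyp2c29 (1.48 ± 0.38) and Cyp2c70 (0.41 ± 0.09), which makes muricholic acids, rose, while Cyp2c55 (-1.71 ± 0.40) and Cyp2g1 (-1.31 ± 0.22) fell. Cyp2c29 measured 10.28, 12.58, 12.39 and 12.34 untreated, with replicate 1 far below, and 13.47, 13.23, 13.16 and 13.61 with zinc. The count of rises was 1 without any 1 of the zinc-treated arrays. The Cyp2c genes resemble each other closely, so their probe sets may share signal.

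Bile acids are made from cholesterol in hepatocytes and pumped into bile. In bile acid synthesis 5 of 17 members rose (29.4%, against 1.70% of all genes) and none fell. Of 21 transporters of bile acids and organic ions 3 rose (14.3%) and 2 fell (9.52%, against 4.84%). Nr0b2, the repressor SHP that bile acids induce through FXR, measured 8.68, 8.73, 8.19 and 8.30 untreated and 10.01, 8.99, 9.38 and 9.96 with zinc, against 9.37 to 10.59 in wild type (1.11 ± 0.26, adjusted p = 0.0231). Abcb11, the export pump of bile acids into bile, read 11.35, 11.42, 11.64 and 11.40 and 12.14, 12.01, 12.06 and 12.24, against 11.72 to 12.24 (0.66 ± 0.11, adjusted p = 0.00267). Slc10a1, the sodium-coupled importer of bile acids, rose (0.82 ± 0.22, adjusted p = 0.0406) with replicate 1 the lowest untreated array, at 10.90. Abcc2, the export pump of conjugated bilirubin, fell from levels of 10.77 to 11.31 untreated to levels of 10.08 to 10.40 with zinc (-0.84 ± 0.17, adjusted p = 0.00985). Side chain enzymes rose by small amounts, with Slc27a2 at 0.43 ± 0.09, Amacr at 0.37 ± 0.07 and Slc27a5 at 0.31 ± 0.07. Cyp39a1, an oxysterol hydroxylase, rose from levels of 9.30 to 9.88 untreated to levels of 9.91 to 10.56 with zinc, farther from the wild type range of 8.76 to 8.96 (0.64 ± 0.14, adjusted p = 0.0171). Cyp7a1, the rate-limiting enzyme of the pathway, measured 10.67, 11.42, 10.12 and 10.51 and 10.33, 9.36, 8.59 and 10.34 and did not pass (-1.02 ± 0.47, adjusted p = 0.223). The synthesis count was 3 without untreated replicate 4, without zinc-treated replicate 1 or 4, and without zinc-treated replicates 2 and 3 together. The count of rising transporters was 1 without untreated replicate 4 or zinc-treated replicate 2.

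Lipid genes showed few calls and one clear split among zinc-treated arrays. Of 30 genes of fatty acid oxidation and ketogenesis 4 rose (13.3%, against 1.70% of all genes). Among them were Vnn1, a pantetheinase (1.45 ± 0.31), and the thiolase gene Acaa1b (0.53 ± 0.11). The others were Fabp1 (0.42 ± 0.07), which carries fatty acids in the cytosol, and Etfdh (0.39 ± 0.08), which passes electrons from oxidation to the respiratory chain. Fabp1 went from levels of 13.91 to 14.18 untreated to levels of 14.44 to 14.45 with zinc, near the top of the scale. Cyp4a14, an omega-hydroxylase and a strong PPAR-alpha target, measured 7.38, 6.59, 6.58 and 6.56 untreated and 10.84, 4.88, 4.85 and 11.82 with zinc, against 5.39 to 8.68 in wild type (1.32 ± 1.36, adjusted p = 0.625). Acot1, another such target, read 7.65, 5.74, 5.49 and 5.62 and 8.04, 6.23, 6.54 and 7.97 (1.07 ± 0.48, adjusted p = 0.214). For both genes zinc-treated replicates 1 and 4 were high and replicates 2 and 3 low, with no overlap between those pairs. The list mean relative to wild type was 0.34, -0.27, -0.36 and 0.40 in zinc-treated replicates 1 to 4. Of 29 genes of fatty acid synthesis and storage, Pparg rose (0.75 ± 0.20), and Cd36, a fatty acid importer (-0.94 ± 0.23), and Dgat1, which makes triglycerides (-0.56 ± 0.09), fell. Neither fall was called without zinc-treated replicates 2 and 3 (adjusted p = 0.0678 and 0.0502). That of Cd36 was also lost without untreated replicate 1 or 4 or zinc-treated replicate 1, 3 or 4, and the rise of Pparg was lost in 13 alternatives. Lpl, the lipoprotein lipase, rose from levels of 11.38 to 12.11 untreated to levels of 12.12 to 12.70 with zinc, while wild type stood at 9.60 to 9.95 (0.68 ± 0.15, adjusted p = 0.0199). Of 20 genes of cholesterol synthesis and uptake only Sc5d rose (0.57 ± 0.13, adjusted p = 0.0216, and 0.0775 without zinc-treated replicates 2 and 3).

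Among 34 genes of the NRF2 programme, which protects cells from oxidants, 6 fell (17.6%) and 1 rose. Pgd, of the pentose phosphate pathway, measured 11.09, 11.20, 11.20 and 11.19 untreated and 10.01, 10.41, 10.44 and 10.68 with zinc (-0.79 ± 0.14, adjusted p = 0.00463), and 3 of its 4 probe sets fell. Nfe2l2, which encodes NRF2 (-0.63 ± 0.14), the sulfiredoxin gene Srxn1 (-0.50 ± 0.11), Ephx1 (-0.43 ± 0.08), Ugdh (-0.40 ± 0.09) and Txnrd1 (-0.36 ± 0.10) fell too. Txnrd1 lost its call in 15 of 24 alternatives, and averaged over its probe sets it gave 0.10. Gclc, the rate-limiting enzyme of glutathione synthesis, rose from levels of 11.57 to 11.76 untreated to levels of 12.12 to 12.38 with zinc (0.60 ± 0.14, adjusted p = 0.0215), so members of the programme moved in both directions. Nqo1, its usual marker, read 8.05, 7.58, 7.90 and 8.03 and 7.37, 6.95, 6.45 and 7.49 and did not pass (adjusted p = 0.0598). The count of falls was 3 without untreated replicate 4 and 3 without zinc-treated replicates 2 and 3.

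In the methionine cycle, which makes the methyl donor of the liver, 3 of 18 members fell (16.7%, against 4.84% of all genes). Mat1a, the S-adenosylmethionine synthetase of hepatocytes, measured 13.66, 13.64, 13.60 and 13.75 untreated and 13.13, 12.83, 12.49 and 13.27 with zinc, against 12.84 to 13.15 in wild type (-0.73 ± 0.14, adjusted p = 0.00684). Cth, which makes cysteine, fell from levels of 13.38 to 13.65 untreated to levels of 12.71 to 13.11 with zinc (-0.59 ± 0.10, adjusted p = 0.0031), and Nnmt, which uses up methyl groups, fell (-1.24 ± 0.30, adjusted p = 0.0269). In the stress programme of unfolded proteins and amino acid shortage, 3 of 25 members rose and 1 fell. Asns, the asparagine synthetase, fell from levels of 11.29 to 11.58 untreated to levels of 10.62 to 11.12 with zinc, far above the wild type range of 8.07 to 8.74 (-0.58 ± 0.14). Nupr1 (0.72 ± 0.12), the oxidase gene Ero1b (0.54 ± 0.12) and Psat1 (0.38 ± 0.10), of serine synthesis, rose. Of 23 acute phase genes Il1r1, the receptor of interleukin 1, rose from 7.67, 7.63, 7.61 and 7.63 to 8.53, 8.63, 8.42 and 8.73 (0.94 ± 0.10, adjusted p = 0.000106), Itih3 rose (0.44 ± 0.07) and Serpina3n fell (-0.67 ± 0.17). Of 20 clock genes Bhlhe40 (-1.18 ± 0.27) and Cry2 (-0.49 ± 0.13) fell. Neither was called without zinc-treated replicates 2 and 3 (adjusted p = 0.0638 and 0.349) or without untreated replicate 4. Without the same 2 zinc-treated arrays Asns was not called either (adjusted p = 0.052), and the call of Serpina3n was lost without any 1 of untreated or zinc-treated replicates 1, 3 and 4.

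Marker lists of other cells gave few calls, and in whole liver fewer cells of a type and less RNA per cell cannot be told apart. None of 30 macrophage markers passed, and the list mean relative to wild type was 0.03, -0.61, -0.51 and -0.68 in the untreated arrays and -0.53, -0.26, -0.40 and -0.41 in the zinc-treated ones. None of 20 lymphocyte, 11 neutrophil and 18 cholangiocyte markers passed either. At an unadjusted p below 0.05 (limma) 2 of 30 macrophage, 3 of 20 lymphocyte, 2 of 11 neutrophil and 6 of 18 cholangiocyte markers differed. Over all 18193 genes 3988 did. Of 6 adipocyte markers 1 rose (16.7%, against 1.70% of all genes), Lpl. That list's mean relative to wild type was 0.34, 1.18, 0.45 and 0.47 in zinc-treated replicates 1 to 4 and 0.17 to 0.265 in the untreated arrays. Zinc-treated replicate 2 was thus the highest, and whether fat cell RNA adds to lipid gene levels there was not tested. Of 10 erythroid markers 2 fell (20.0%, against 4.84% of all genes), and 1 without zinc-treated replicates 2 and 3. Of 36 stellate cell and matrix genes 5 rose (13.9%, against 1.70% of all genes) and 1 fell (2.78%, against 4.84%). Col3a1 (0.74 ± 0.20), Reln (0.61 ± 0.12), Lum (0.45 ± 0.10), Timp2 (0.40 ± 0.09) and Col4a2 (0.38 ± 0.10) rose, and Tgfbi (-0.39 ± 0.10) fell. Without zinc-treated replicates 2 and 3 only Reln, a marker of stellate cells, was called (0.67, adjusted p = 0.0466), and the count of rises ran from 1 to 6 over single arrays left out, being 1 without untreated replicate 2 or 4 or zinc-treated replicate 3 or 4. Of 23 endothelial markers Clec4g, of sinusoids, rose (0.43 ± 0.08) and Tek fell (-1.06 ± 0.22, and adjusted p = 0.0631 without zinc-treated replicates 2 and 3). Of 19 fetal and tumour markers 3 fell (15.8%, against 4.84% of all genes). Afp, the alpha-fetoprotein gene, measured 9.62, 8.29, 8.11 and 8.74 untreated and 6.93, 7.56, 7.08 and 6.90 with zinc, against 4.98 to 5.89 in wild type (-1.57 ± 0.29, adjusted p = 0.00565). Spink1, a trypsin inhibitor, read 11.42, 8.45, 8.28 and 9.19 and 6.87, 8.22, 6.66 and 7.27 (-2.08 ± 0.55, adjusted p = 0.0377), and Golm1 fell (-0.93 ± 0.23). The count was 1 without zinc-treated replicate 1 or 4 or without replicates 2 and 3 together, and 6 without untreated replicate 3. Anxa5 (-0.64 ± 0.11), which binds exposed phosphatidylserine, and S100a10 (-0.78 ± 0.17) fell as well.

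The pancreatic list held 24 measured markers. Its mean relative to wild type was -0.03, 3.00, 0.80 and 0.03 in zinc-treated replicates 1 to 4 and 0.18, 0.11, -0.01 and 0.08 in the untreated arrays. Cpb1, a carboxypeptidase of the acinar cell, measured 4.15, 10.20, 6.21 and 3.73 with zinc and 3.41, 3.52, 3.27 and 3.92 without, and Cela2a, an elastase, 5.84, 10.48, 7.46 and 6.29 and 6.56, 5.76, 5.35 and 5.72. No acinar marker rose in the test, and Spink1, which is on this list as well, fell and was highest in untreated liver. The part that the pancreatic RNA plays in the higher p53 target levels or the lower Cyp4a14 levels of the same 2 arrays was not tested.

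**Figure D5:**
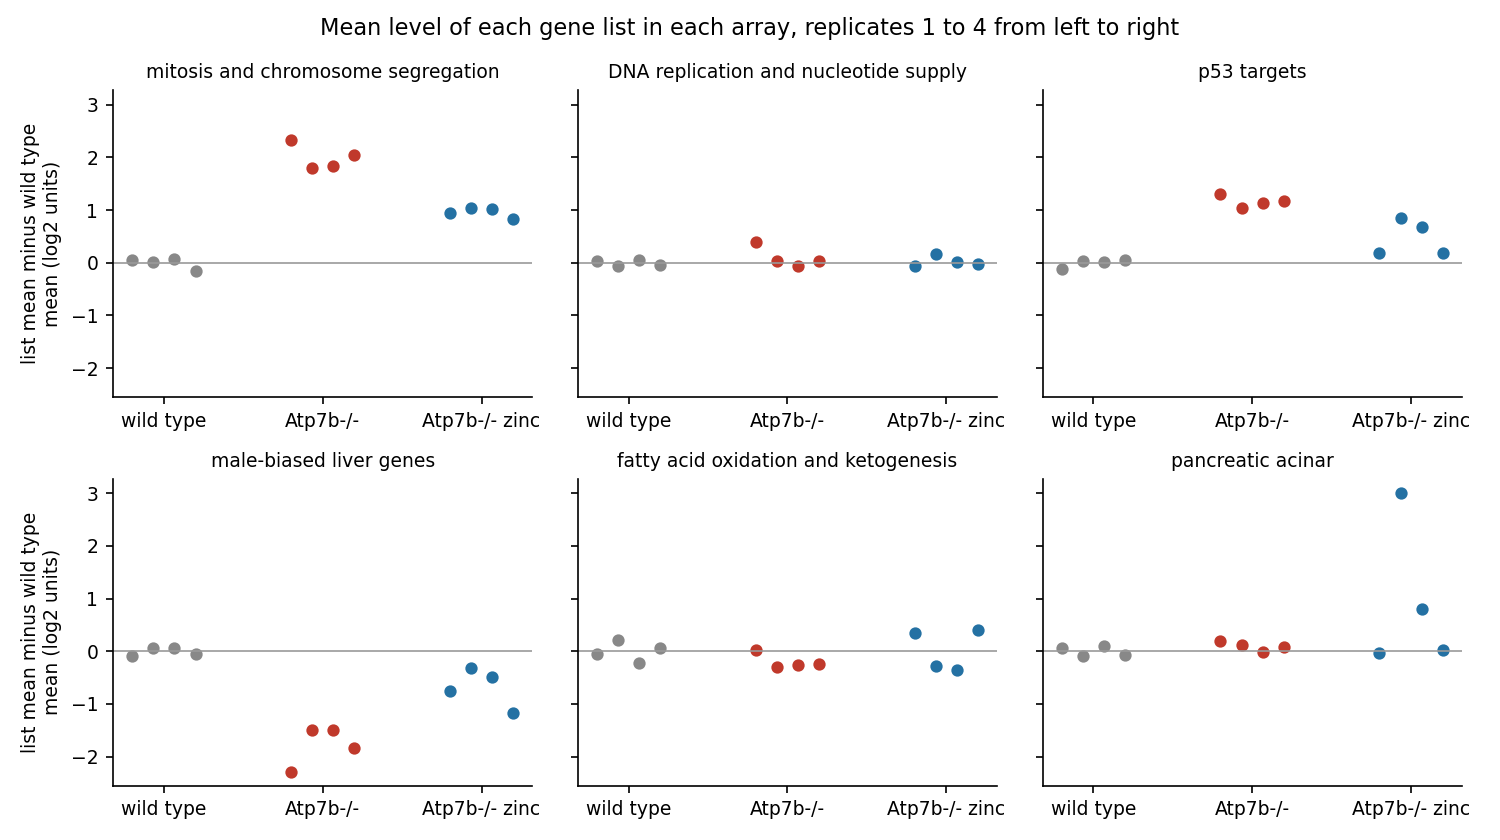
Mean level of 6 gene lists in each array minus the wild type mean (log2 units), replicates 1 to 4 from left to right within each group. Mitosis genes separate all 3 groups, and replication genes overlap. In the p53, male-biased, fatty acid oxidation and pancreatic panels zinc-treated replicates 2 and 3 lie apart from replicates 1 and 4.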

How the data were processed

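Mouse liver RNA was measured on 12 Affymetrix arrays, which read the 3' end, and the values used are log2 levels per probe set, deposited by the authors. Their normalization, by a method not given in the sources used here, was kept. Of 45101 probe sets, 64 controls, 932 with several symbols and 9160 with none were left out, and the brightest probe set (mean of 12 arrays) stood for each of 18193 genes. Groups were compared with limma 3.58.1 (R 4.3.3), lmFit and eBayes on all 12 arrays with group means, and p-values were adjusted by Benjamini-Hochberg. Same-numbered arrays did not deviate together (r -0.07, 0.01, -0.08 and 0.08), so replicate numbers were not taken as pairs. In simulated data, 46 of 50 genes lowered by 1 log2 unit and 44 of 50 raised by 1 were recovered, and 30 of 50 changed by 0.5 each way.

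The gene lists were chosen with earlier results of these data known, while the arrays compared were chosen by their sample titles. Genes were named by a rule. It took the 15 with the largest change each way, after filters that included a call and no overlap between the groups' arrays. From each list up to 6 were taken in order of adjusted p, whether or not they passed. The 10 each way without zinc-treated replicates 2 and 3 were added. So were the 8 that varied most among the zinc-treated arrays, and fixed metal genes. Members named beyond this rule (Cdk1, Cdc20, Mad2l1, Top2a, Aurkb, Plk1, Cenpa, Mki67, Foxm1, Bub1b, Kif2c, Ccnb2, Mcm5, Pcna, Atm, Phlda3, Eda2r, Mdm2, Zmat3, Bbc3, Sesn1, Spink5, Rsph3a, Moxd1, Cyp7a1, Acot1, Nqo1 and Txnrd1) were chosen after their values were seen. Promoter windows are RefSeq's on GRCm38.p6. The number of arrays limits precision.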

Additional observations from a re-analysis of the deposited data

Results flagged for a closer look

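Each group of 4 arrays was searched for a single array far from the other 3 (by Dixon's ratio). Chance gives such an array in about 1 of 20 groups, and 25 of the 390 groups searched had one, 17 of them untreated and 8 zinc-treated.

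In the untreated group, replicate 1 stood alone most often. It was the lowest array for Slc30a10 (9.34), Avpr1a (7.89), Cyp2c29 (10.28) and Pgd (11.09), and the highest for Pcna (10.12), Sult1e1 (9.35), Cyp4a14 (7.38), Acot1 (7.65), Col4a2 (7.61) and Ddit4l (8.17). Its mean relative to wild type was the highest for the fatty acid oxidation list (0.02) and the lowest for the cytochrome P450 list (-0.47). Untreated replicate 2 was lowest for Cenpa (8.55), replicate 3 for Zfp36 (10.4) and Stat5b (8.62), and replicate 4 for Egfr (8.93) and Gria3 (8.88).

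In the zinc-treated group, replicate 1 was highest for Bub1b (6.31) and Hsd17b6 (11.79) and lowest for Col3a1 (9.71) and Bhlhe40 (8.46). Replicate 2 was highest for Tek (7.26) and Ero1b (11.03). Replicate 4 was lowest for Adh6-ps1 (6.21) and highest for Sc5d (13.62).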

How the results depend on the processing

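The 1190 changed genes (309 higher, 881 lower) became 1861 with array weights (568 higher), 13 in limma's test against a minimum change of 1 log2 unit (1 higher, 12 lower), 614 without zinc-treated replicates 2 and 3 (157 higher, 457 lower) and 598 without these and untreated replicate 1 (166 higher, 432 lower). Leaving out 1 array gave 689 to 1158 genes, 163 to 307 higher and 526 to 853 lower, with the lowest counts without untreated replicate 4. Without zinc-treated replicate 1, 2, 3 or 4, 170, 193, 185 and 188 genes were higher. With the replicate number as a block, 1171 genes changed (310 higher, 861 lower), and 13 of the 140 named called genes lost their call.

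Of those 140, 64 kept their call in every alternative in which they were tested, apart from the minimum-change test, and 3 turned sign in some alternative. Without cross-hybridising probe sets the change was 0.165 for Mt1, 0.039 for Cox17, 0.068 for Hamp2 and -0.866 for Kif2c. Averaging probe sets gave 0.098 for Txnrd1, -0.064 for Foxm1, -0.625 for Bub1b and -0.575 for Kif2c. Without zinc-treated replicates 2 and 3, Mt2 gave 0.088, Foxm1 -0.014, Kif2c -0.023, Mcm5 -0.24 and Moxd1 -0.644. Leaving out untreated replicate 1 as well gave 0.227 for Mt2, 0.086 for Mki67, -0.033 for Mcm5 and -0.772 for Moxd1. Array weights gave 0.155 for Mki67. With single arrays left out, the change ran from -0.376 to 0.026 for Mt2, from -0.161 to 0.297 for Mki67, from -0.042 to 0.116 for Kif2c and from -0.194 to 0.286 for Mcm5. The cause was not tested, except that other probe sets or fewer arrays were used.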
